A study of Mus musculus with 6 samples.

Results

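Ly6c2, Hp, Ifitm6, Plac8, Vcan, Fn1 and S100a4 are 7 genes whose transcripts are abundant in the classical monocytes of the mouse. They were followed here across 3 cell fractions sorted from the sublingual mucosa, the lining under the tongue. The members were every non-control probe carrying one of these 7 names in the scanner files, which gave 12 probes of the 56605 on the array. Each gene had at least 1 probe that passed the filter on dim signals, so all 7 were among the 20817 genes tested.

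The cells came from BALB/c mice, an inbred laboratory strain, painted 2 times on this mucosa with FITC, a fluorescent dye and contact sensitiser. The fraction called Fr2 held CD11c-F4/80+CD206- cells, Fr1 held CD11c+CD206- cells, and Fr3 held F4/80+CD206hi cells. CD11c is an integrin chain typical of dendritic cells, F4/80 a macrophage antigen and CD206 the macrophage mannose receptor. Each fraction had 2 arrays, which the series design describes as independent experiments, and all 3 fractions came from painted mice, so that no unpainted tissue was compared. Minced dorsal tongue was digested with collagenase and DNase for 30 min at 37 °C before sorting, and the amplified cDNA was labelled with Cy3. The array titles name the sublingual site and not the dorsal tongue, and this difference was not resolved. The sources used here do not give the number of mice pooled for a sort, and each fraction is defined by its gate and not by a single cell type.

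Classical monocytes are blood cells that enter inflamed tissue through the chemokine receptor CCR2 and can turn there into macrophages or cells resembling dendritic cells. In the mouse they carry Ly6C on their surface, and they lose it, together with other transcripts of the circulating cell, as they mature. Their products include proteins of host defence and iron handling and also matrix proteins such as fibronectin, which tissue macrophages and fibroblasts make as well. Several of the 7 genes are also transcribed in neutrophils, another blood leukocyte that enters inflamed tissue.

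A level below is the log2 of a probe's processed signal minus the 75th percentile of its array, so that a probe at that percentile has a level of 0. Levels of different probes are not compared with each other, because probes differ in how they bind. Between 44.6% and 52.4% of non-control spots were well above background on an array, and no spot was saturated. Replicates correlated with r = 0.90 in Fr2, 0.88 in Fr1 and 0.80 in Fr3 across the 20817 genes, which are not independent replicates. Both Fr2 arrays lay on one slide and all 4 Fr1 and Fr3 arrays on another, so that in any difference of Fr2 the fraction and the slide cannot be told apart, whereas Fr1 and Fr3 were compared within a slide. The genes of the sorting antigens followed the gates in part. Mrc1, which encodes CD206, had levels of 0.64 and 0.33 in Fr2, was not well above background in Fr1, and had levels of 3.78 and 2.67 in Fr3. Mrc1 was thus measured in Fr2, although that gate took CD206- cells. Itgax, which encodes CD11c, had levels of 2.77 and 1.20 in Fr2, 2.71 and 2.35 in Fr1, and 0.20 and 0.95 in Fr3, so that the CD11c- fraction Fr2 overlapped the CD11c+ fraction Fr1. Adgre1, which encodes F4/80, had levels of 5.94 and 5.97 in Fr2, 4.49 and 4.39 in Fr1, and 5.46 and 5.32 in Fr3.

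By the brightest kept probe of each gene, all 7 had a higher mean level in Fr2 than in Fr1 and than in Fr3. For Fn1 the difference between Fr2 and Fr3 was only 0.05 ± 0.75 (SE, n = 2 each). A further kept Fn1 probe was lower in Fr2 than in Fr3 (-0.77 ± 0.98). A further kept Vcan probe was lower in Fr2 than in Fr1 (-1.83 ± 0.83). By the brightest probes, the 7 genes divided between Fr1 and Fr3 into a group with more signal in Fr1, made up of Ly6c2, Hp and Plac8, and a group with more signal in Fr3, made up of Ifitm6, Vcan, Fn1 and S100a4. None of the 7 passed an adjusted p of 0.05 in any of the 3 comparisons, by limma's moderated test with Benjamini-Hochberg adjustment over all genes. Over all genes that call was made for 0% in Fr2 minus Fr1, 0.0048% in Fr2 minus Fr3 and 0.0048% in Fr1 minus Fr3, so a count of 0 members is near the background. At an unadjusted p under 0.05, 4 members were higher and 0 lower in Fr2 than in Fr1, where 6.46% of all genes were higher and 3.33% lower. In Fr2 against Fr3, 3 members were higher and 0 lower at that level, where 4.83% of all genes were higher and 4.08% lower. In Fr1 against Fr3, 3 members were higher, where 2.78% of all genes were, and 2 were lower, where 5.34% of all genes were.

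**Figure D1:**
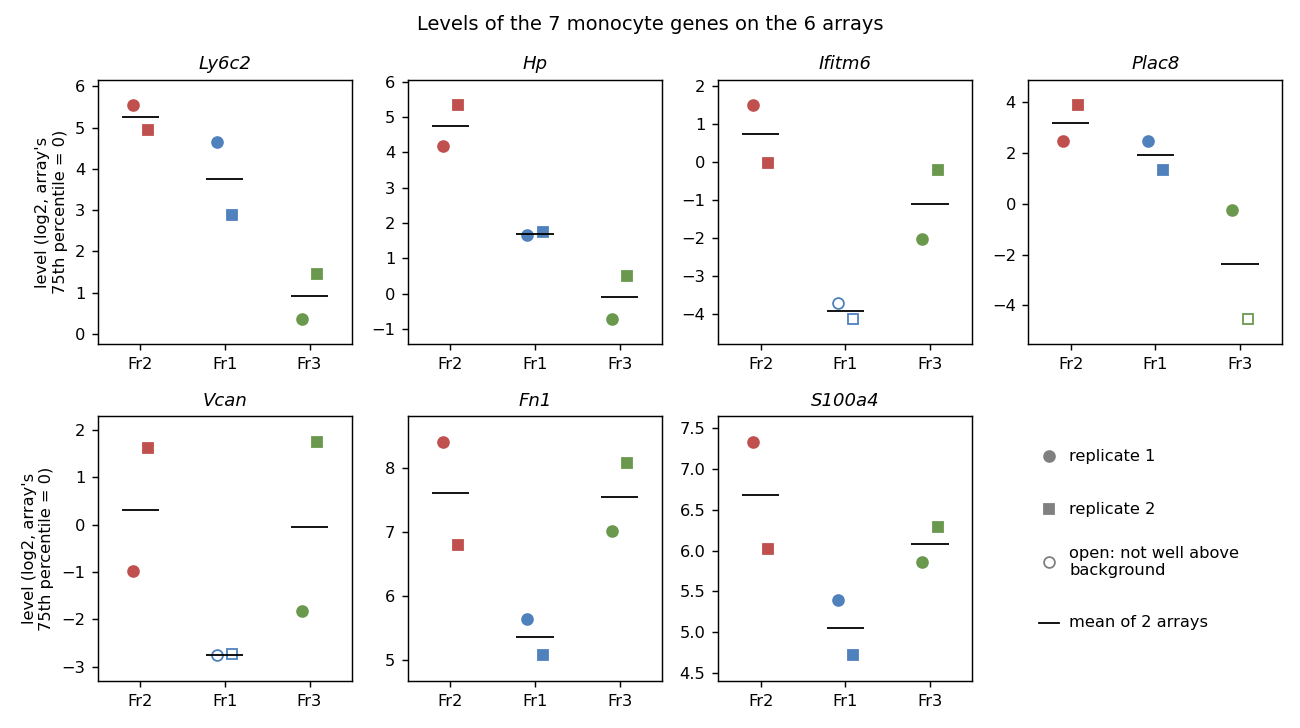
Levels (log2, 0 at the array's 75th percentile) of the 7 genes, each from its brightest kept probe, in Fr2, Fr1 and Fr3. Circles are replicate 1, squares replicate 2, open symbols were not well above background and lines are means of 2 arrays. Fr2 had the highest mean in all 7 panels, and the lowest was Fr3 for Ly6c2, Hp and Plac8 but Fr1 for Ifitm6, Vcan, Fn1 and S100a4.

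The count of genes whose arrays did not overlap describes the same arrays without a model, and is not independent of the tests above. The members were chosen with earlier results of these data known. The shares of all genes given here and above are thus a description and not a test of an excess. Ifitm6 and the brightest Vcan probe passed the filter through Fr2 and Fr3 alone, so that their being lowest in Fr1 is a description. In Fr2 minus Fr1, both Fr2 arrays lay above both Fr1 arrays for 6 of 7 members and wholly below for 0, against 22.3% and 22.5% of all genes. In Fr2 minus Fr3 this held for 4 of 7 and 0 of 7, against 19.5% and 22.7% of all genes. In Fr1 minus Fr3, 3 members lay wholly higher and 4 wholly lower, against 13.7% and 21.9% of all genes. The median difference of the 7 members was 2.24 in Fr2 minus Fr1, 1.86 in Fr2 minus Fr3 and -1.02 in Fr1 minus Fr3, while that of all genes was -0.03, -0.08 and -0.05 on the same log2 scale. The arrays measure pooled RNA, and fewer cells that carry a transcript cannot be told apart from less of it per cell.

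**Figure D2:**
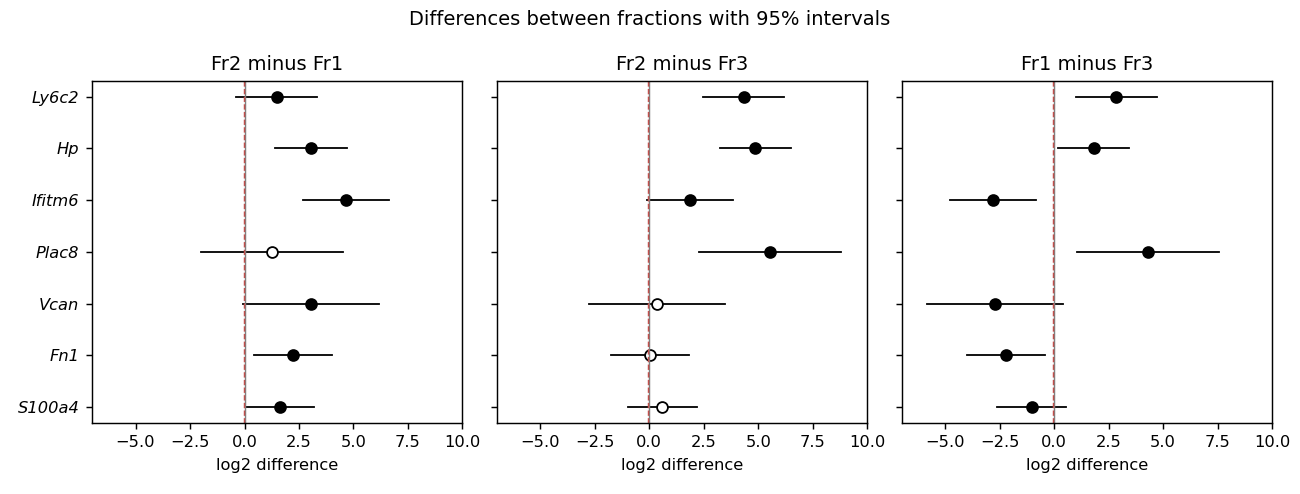
Differences in level (log2) with their 95% intervals from limma for the 7 genes, in Fr2 minus Fr1, Fr2 minus Fr3 and Fr1 minus Fr3. Filled points mark genes whose arrays did not overlap, the grey line is 0 and the dashed red line the median of all genes tested. In Fr1 minus Fr3 the points of Ly6c2, Hp and Plac8 lie to the right of 0 and those of Ifitm6, Vcan, Fn1 and S100a4 to the left.

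Ly6c2 encodes Ly6C2, the surface protein anchored in the membrane by a lipid by which classical monocytes are sorted in the mouse. Its probe lies on chr15:74938637-74938695 (minus strand, mm9). Its levels were 5.54 and 4.95 in Fr2, 4.64 and 2.87 in Fr1, and 0.37 and 1.45 in Fr3. No array of a fraction reached into another fraction's range. The difference between Fr2 and Fr3 was 4.33 ± 0.78 (SE, n = 2 each; adjusted p = 0.167), a 20.1-fold higher signal in Fr2. Fr1 exceeded Fr3 by 2.85 ± 0.78 (adjusted p = 0.378), or 7.19-fold, within the slide that both shared. Fr2 minus Fr1 was 1.49 ± 0.78 (adjusted p = 0.582) with a 95% interval of -0.37 to 3.35, so that these neighbours in the order did not differ beyond the spread.

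The Ly6c2 probe cannot be read as specific for Ly6c2. One probe named for the neighbouring gene Ly6c1, whose protein is also recognised as Ly6C, has the same base at 57 of 60 positions, with an unbroken shared run of 48 bases. Bases 31 to 60 of both are shown because they carry 2 of the 3 differences, which stand in capitals.
Ly6c2: tctggggtcctgcagggttcccatgtGtgT
Ly6c1: tctggggtcctgcagggttcccatgtAtgC
The near-identical Ly6c1 probe, on chr15:74875495-74875554 (mm9), gave 5.43 and 4.92 in Fr2, 4.76 and 2.84 in Fr1, and 0.35 and 1.21 in Fr3. It followed the Ly6c2 probe array by array, and the 2 genes' shares of either signal are uncertain. A further Ly6c1 probe at chr15:74877785-74877844 (mm9) shares no run over 5 bases with the Ly6c2 probe. It read 2.28 and 2.97 in Fr2, 2.19 and 1.41 in Fr1, and 0.23 and 0.91 in Fr3. The order of the fractions was the same as for Ly6c2, with a narrower span.

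Hp encodes haptoglobin, the acute-phase protein that binds free haemoglobin, made chiefly in the liver and also stored in the granules of neutrophils. Its probe lies on chr8:112099045-112099104 (minus strand, mm9). Hp had levels of 4.17 and 5.33 in Fr2, 1.67 and 1.73 in Fr1, and -0.71 and 0.49 in Fr3. The 3 fractions were wholly apart, and Hp had the smallest F-test p of the 7 genes, at rank 91 of 20817 (adjusted p = 0.161 by limma). Fr2 exceeded Fr3 by 4.86 ± 0.68 (SE, n = 2 each; adjusted p = 0.122), or 29.0-fold. Fr2 exceeded Fr1 by 3.05 ± 0.68 (adjusted p = 0.322), or 8.28-fold, and Fr1 minus Fr3 was 1.81 ± 0.68 (adjusted p = 0.568). The difference between Fr2 and Fr3 was 4.26 without Fr3 replicate 1, which left a single Fr3 array. At an unchanged size it passed the threshold with only probes detected on all 6 arrays (adjusted p = 0.0378), where 9 of 13738 genes were called. The difference also passed with only probes of at most 30% T (adjusted p = 0.0347), where 56 of 13718 genes were called.

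Plac8 encodes a small cysteine-rich protein found in myeloid cells and in plasmacytoid dendritic cells. Its probe lies on chr5:100982797-100982856 (minus strand, mm9). Plac8 had levels of 2.46 and 3.88 in Fr2, 2.47 and 1.34 in Fr1, and -0.26 and -4.53 in Fr3, where replicate 2 was not well above background. Both other fractions lay above Fr3, and Fr2 and Fr1 overlapped. Fr2 minus Fr3 was 5.56 ± 1.37 (SE, n = 2 each; adjusted p = 0.282) and Fr1 minus Fr3 was 4.30 ± 1.37 (adjusted p = 0.457). Without Fr3 replicate 1 these differences were 7.69 and 6.43, against a single Fr3 array that was not above background. Without Fr3 replicate 2 they were 3.42 and 2.16, again against a single Fr3 array. With normexp background correction they were 2.39 and 1.55. Fr2 minus Fr1 was 1.26 ± 1.37 (adjusted p = 0.804), with a 95% interval that included 0.

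Ifitm6 belongs to the family of interferon-induced transmembrane proteins, several of which hinder the entry of viruses. Its probe lies on chr7:148201714-148201773 (minus strand, mm9). Ifitm6 had levels of 1.50 and -0.02 in Fr2, measured values of -3.72 and -4.13 in Fr1, and levels of -2.02 and -0.22 in Fr3. It was not well above background on either Fr1 array, and the 3 fractions did not overlap. Where a fraction had no signal above background, the fold is a bound. It is taken against the array's lowest signal well above background or the probe's own signal, whichever was higher. Such a bound allows for the missing signal only, and not for the spread between replicates or another background correction. Fr2 exceeded Fr1 at least 8.01-fold (fitted difference 4.67 ± 0.83, SE, n = 2 each; adjusted p = 0.267). Fr3 exceeded Fr1 at least 2.21-fold, the fitted Fr1 minus Fr3 being -2.81 ± 0.83 (adjusted p = 0.420). That difference was -3.71 without Fr3 replicate 1 and -1.91 without Fr3 replicate 2, each against a single Fr3 array. Fr2 minus Fr3 was 1.86 ± 0.83 (adjusted p = 0.577), and its 95% interval of -0.12 to 3.84 included 0 although the arrays did not overlap. With normexp correction Fr2 minus Fr1 was 0.99, Fr2 minus Fr3 was 0.63 and Fr1 minus Fr3 was -0.36.

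S100a4 encodes a calcium-binding protein of motile cells, made by macrophages, lymphocytes and fibroblasts as well as monocytes. Its probe lies on chr3:90409842-90409902 (plus strand, mm9). S100a4 was bright on every array, with levels of 7.33 and 6.03 in Fr2, 5.39 and 4.72 in Fr1, and 5.86 and 6.29 in Fr3. Fr1 lay below both other fractions, which overlapped. Fr2 minus Fr1 was 1.62 ± 0.66 (SE, n = 2 each; adjusted p = 0.500), Fr1 minus Fr3 was -1.02 ± 0.66 (adjusted p = 0.655) and Fr2 minus Fr3 was 0.60 ± 0.66 (adjusted p = 0.751). The sign of the last turned without Fr2 replicate 1, to -0.053.

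Fn1 encodes fibronectin, the matrix glycoprotein to which cells attach through integrins. Its brightest probe lies on chr1:71632116-71632175 (minus strand, mm9). Fn1 had levels of 8.40 and 6.79 in Fr2, 5.64 and 5.07 in Fr1, and 7.01 and 8.08 in Fr3. Fr2 and Fr3 overlapped, and Fr1 lay below both. Fr2 minus Fr1 was 2.24 ± 0.75 (SE, n = 2 each; adjusted p = 0.444), or 4.73-fold, and Fr1 minus Fr3 was -2.19 ± 0.75 (adjusted p = 0.508). Fr2 minus Fr3 was 0.05 ± 0.75 (adjusted p = 0.983), with a 95% interval from -1.74 to 1.84 that allows a difference of either sign. Its sign turned under 4 of the alternatives.

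Fn1 had 3 more probes, of which the 2 that were kept shared the low mean in Fr1. The order of the Fr2 and Fr3 means was that of the brightest probe at base 769 and the reverse at base 7252. The probe starting at base 769 of its listed transcript had levels of 4.52 and 3.55 in Fr2, 1.06 and 2.44 in Fr1, and 2.61 and 4.31 in Fr3. The probe starting at base 7252 had 3.36 and 2.20 in Fr2, 0.09 and 1.30 in Fr1, and 2.28 and 4.82 in Fr3. Fr2 minus Fr3 was 0.58 ± 0.84 at base 769 and -0.77 ± 0.98 at base 7252 (SE, n = 2 each; adjusted p = 0.809 and 0.782), both within the spread. Both run across an intron in mm9, on chr1:71694694-71695800 and chr1:71637422-71639659 on the minus strand, and they are listed for different transcripts of the gene. Their sequences are shown because both stretches of Fn1 gave their lowest mean in Fr1, and T is in capitals because replicate differences moved with T content.
Fn1, base 769: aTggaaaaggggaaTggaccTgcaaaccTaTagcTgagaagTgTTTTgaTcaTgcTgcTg
Fn1, base 7252: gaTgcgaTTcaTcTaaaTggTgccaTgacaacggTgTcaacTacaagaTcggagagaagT
The remaining Fn1 probe, starting at base 2699, was above background on Fr2 replicate 1 alone and was not kept.

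Vcan encodes versican, a large chondroitin sulfate proteoglycan that binds hyaluronan. Its brightest probe, starting at base 1428 of the transcript, lies on chr13:89851810-89851869 (minus strand, mm9). It had levels of -0.99 and 1.61 in Fr2, measured values of -2.76 and -2.73 in Fr1, where it was not well above background, and levels of -1.83 and 1.74 in Fr3. Fr2 and Fr3 overlapped over a wide range, and their difference of 0.36 ± 1.31 (SE, n = 2 each; adjusted p = 0.931) changed sign without Fr2 replicate 2 (-0.94) or without Fr3 replicate 1 (-1.43). Fr2 exceeded Fr1 at least 5.95-fold (fitted difference 3.06 ± 1.31, adjusted p = 0.518). Fr3 exceeded Fr1 at least 4.65-fold, the fitted Fr1 minus Fr3 being -2.70 ± 1.31 (adjusted p = 0.625). That difference was -4.49 without Fr3 replicate 1 and -0.91 without Fr3 replicate 2, each against a single Fr3 array. The bound thus rests mainly on Fr3 replicate 2. With normexp correction Fr2 minus Fr1 was 0.76 and Fr1 minus Fr3 was -0.73.

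The 3 Vcan probes did not tell the same story. The probe starting at base 12207, on chr13:89795080-89795139 (minus strand, mm9), was above background in Fr2 alone, with levels of -2.49 and -0.14, and it read -4.46 and -4.17 in Fr1 and -3.40 and -2.67 in Fr3. The probe starting at base 459, on chr13:89865266-89871120 (minus strand, mm9) across an intron, had the opposite order between Fr1 and the rest. It read -4.60 and -2.69 in Fr2, where replicate 2 alone was above background, -1.96 and -1.66 in Fr1, where both were, and -3.13 and -4.47 in Fr3, where neither was. Tested over all kept probes, its Fr2 minus Fr1 was -1.83 ± 0.83 (SE, n = 2 each; adjusted p = 0.521). Its Fr1 minus Fr3 was 2.00 ± 0.83 (adjusted p = 0.567), with Fr1 at least 1.72-fold above Fr3. This probe passed the filter through Fr1 alone, so that its being brightest there is a description. The probe at base 12207 passed it through Fr2 alone, and its being brightest in Fr2 is likewise a description. The probes starting at bases 459 and 1428 are listed for the same 4 RefSeq transcripts, and they are shown because their signals went opposite ways, with T in capitals.
Vcan, base 459: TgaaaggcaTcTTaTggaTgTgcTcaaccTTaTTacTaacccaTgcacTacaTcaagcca
Vcan, base 1428: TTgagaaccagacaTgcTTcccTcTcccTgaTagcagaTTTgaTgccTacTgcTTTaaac
They hold 16 and 18 T of 60 bases. With the mean of the kept probes in place of the brightest, Vcan was 1.41 in Fr2 minus Fr1 and -0.66 in Fr1 minus Fr3.

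**Figure D3:**
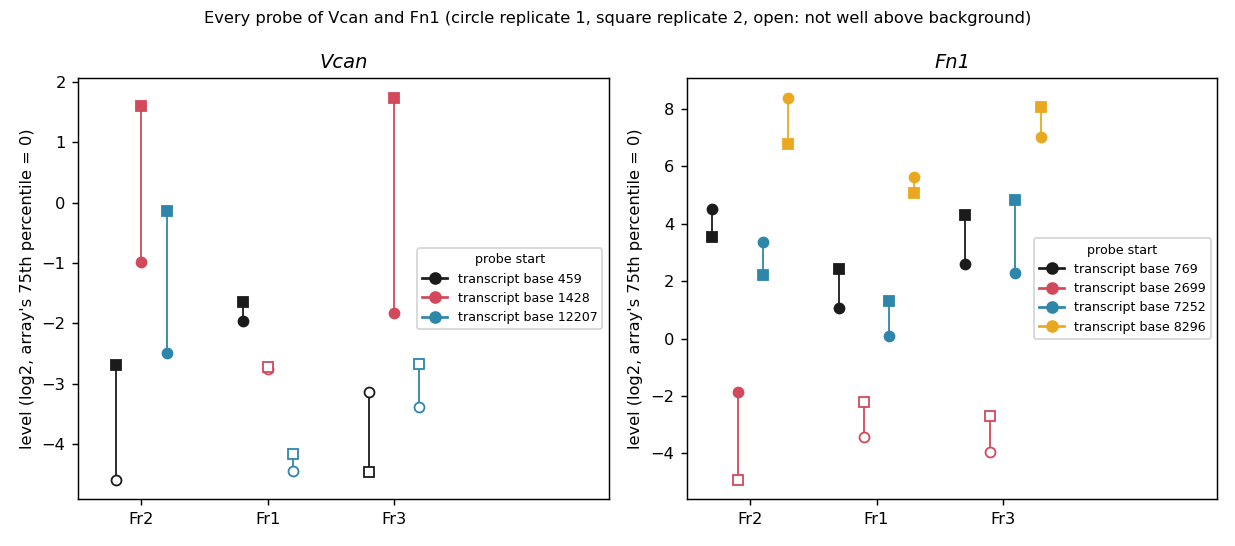
Levels (log2, 0 at the array's 75th percentile) of all 3 Vcan probes and all 4 Fn1 probes in Fr2, Fr1 and Fr3, coloured by the transcript base at which the probe starts, with lines joining the 2 replicates. Heights of different colours are not comparable. The Vcan probe at base 459 is highest in Fr1 while the others are lowest there, and the 3 kept Fn1 probes all have their lowest mean in Fr1.

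Across the 6 arrays the correlations followed that division in part. Pearson's r was 0.88 between Ly6c2 and Hp, 0.76 between Ly6c2 and Plac8 and 0.71 between Hp and Plac8. It was 0.94 between Fn1 and S100a4, 0.94 between Ifitm6 and S100a4, 0.92 between Ifitm6 and Fn1, 0.71 between Ifitm6 and Vcan, 0.62 between Vcan and Fn1 and 0.48 between Vcan and S100a4. Across the 2 groups it ran between -0.37, for Plac8 and Fn1, and 0.49, for Hp and Ifitm6, so that Vcan and S100a4 were no closer than Hp and Ifitm6. These values describe 6 arrays that share fractions and slides, and the division was itself drawn from Fr1 and Fr3 on the same arrays.

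The gap between replicates set how much could be read from each gene. The gap in Fr3 was 4.27 for Plac8, larger than that of 96.5% of genes, and 3.58 for Vcan, larger than that of 93.7%. Vcan also had a gap of 2.60 in Fr2, larger than that of 96.2% of genes. Hp in Fr1 differed by 0.06 between replicates. Part of the spread over all genes moved with the share of T in the probe. In Fr3, the median of replicate 2 minus replicate 1 was 0.69 for genes whose probe held up to 20% T and -1.74 for those over 40% T. In Fr1 the corresponding medians were 0.49 and -0.92, and in Fr2 they were 0.24 and 0.04. The Plac8 probe holds 43.3% T, the highest share of the 7, and its replicates in Fr3 differed in that direction. The other 6 probes hold between 25% and 35% T, a range in which the Fr3 medians lay between 0.15 and 0.56. The part of T content in these differences was not tested beyond the alternatives in which the probes were restricted to at most 30% T or the arrays centred by T count.

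**Figure D4:**
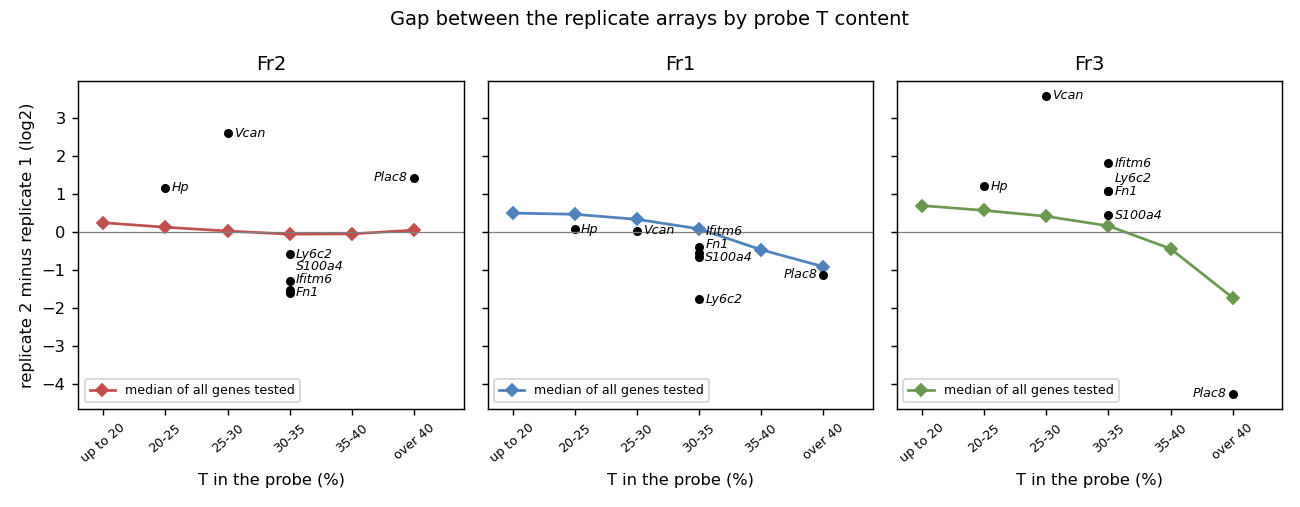
Replicate 2 minus replicate 1 (log2) against the share of T in the probe, for Fr2, Fr1 and Fr3. Coloured diamonds are medians of all genes tested in each T class and black points are the 7 genes. The median line falls to -1.74 in Fr3 and to -0.92 in Fr1 at over 40% T and stays near 0 in Fr2, and Plac8 lies at -4.27 in Fr3.

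Other genes of classical monocytes were mostly higher in Fr2 than in Fr1 and mostly lower in Fr1 than in Fr3. Of 28 further markers, 26 to 28 were well above background on every array of all fractions, so that detection alone did not separate the fractions. In Fr2 minus Fr1, 13 of 28 were higher and 0 lower at an unadjusted p under 0.05, with a median of 1.43. Over all genes 6.46% were higher and 3.33% lower. In Fr2 minus Fr3, 5 were higher and 1 lower, with a median of -0.16, against 4.83% and 4.08% of all genes. In Fr1 minus Fr3, 2 were higher and 11 lower, with a median of -1.11, against 2.78% and 5.34% of all genes. These shares apply to the lists below as well, and a count of 1 in a short list says little beside them. No marker passed the adjusted threshold in any of the 3 comparisons, and the list was drawn up with earlier results of these data known.

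The 4 markers with the smallest F-test p illustrate the range. F13a1, the A subunit of clotting factor XIII, which monocytes and macrophages carry, had levels of 4.97 and 4.31 in Fr2, 1.80 and 1.90 in Fr1, and 8.19 and 7.44 in Fr3. It was thus lowest in Fr1 and highest in Fr3, with Fr2 minus Fr3 at -3.18 ± 0.58 and Fr1 minus Fr3 at -5.97 ± 0.58 (SE, n = 2 each; adjusted p = 0.174 and 0.0851). Chil3, a chitinase-like secreted protein, had levels of 2.98 and 4.03 in Fr2, was not above background in Fr1, and was above background in Fr3 on replicate 1 alone. It exceeded Fr1 at least 54.5-fold in Fr2 (adjusted p = 0.193), and Fr2 minus Fr3 was 7.17 ± 0.83 (adjusted p = 0.0883). Chil3 passed the filter through Fr2 alone, so that its being highest there is a description. Lyz2, a lysozyme of monocytes, macrophages and neutrophils, had levels of 6.05 and 5.55 in Fr2, 2.95 and 2.85 in Fr1, and 6.40 and 6.50 in Fr3. Ly6c1 is described above with Ly6c2. Ccr2, the receptor by which these cells leave the bone marrow, was looked up after its values were seen. It had levels of 2.52 and 1.39 in Fr2, -0.06 and -0.05 in Fr1, and 0.35 and 1.54 in Fr3, which followed Fn1 and S100a4 in being lowest in Fr1.

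Markers of non-classical monocytes, which patrol vessels and carry little Ly6C, had another order. Of 12, 4 were higher and 0 lower in Fr2 than in Fr3 at an unadjusted p under 0.05, with a median of 1.72. In Fr1 minus Fr3, 2 were higher and 0 lower, with a median of 1.16. In Fr2 minus Fr1 none was higher or lower, with a median of 0.37. Itgal, the integrin chain CD11a, had levels of 3.00 and 2.96 in Fr2, 3.06 and 3.62 in Fr1, and -0.60 and 0.46 in Fr3. Fcgr4, an Fc receptor of these cells, had levels of 5.32 and 4.49 in Fr2, 4.04 and 4.06 in Fr1, and 3.06 and 2.91 in Fr3.

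Genes of proteins that bind or process the products of the 7 went in several directions. Of 15 tested among 17, 2 were higher in Fr2 than in Fr1 and 0 lower at an unadjusted p under 0.05, 1 was higher and 2 lower in Fr2 than in Fr3, and 1 was higher and 3 lower in Fr1 than in Fr3. Cd163, the macrophage receptor for complexes of haemoglobin with haptoglobin, had levels of 5.39 and 3.84 in Fr2, 2.63 and 1.28 in Fr1, and 7.05 and 6.68 in Fr3. Its order thus differed from that of Hp, with Fr2 minus Fr3 at -2.26 ± 0.77 and Fr1 minus Fr3 at -4.91 ± 0.77 (SE, n = 2 each; adjusted p = 0.467 and 0.156). Hmox1, haem oxygenase 1, which degrades the haem so taken up, had levels of 3.16 and 2.87 in Fr2, 3.97 and 1.62 in Fr1, and 6.45 and 5.66 in Fr3. Adamts4, a protease that cleaves versican and aggrecan, was above background in Fr2 and Fr3 and not in Fr1. Fr2 exceeded Fr1 at least 5.05-fold (adjusted p = 0.325) and Fr3 exceeded Fr1 at least 7.43-fold (adjusted p = 0.241). As with the Vcan probe at base 1428, Fr1 was the fraction with no signal above background. Tgm2, a transglutaminase that cross-links fibronectin, had levels of 3.52 and 5.17 in Fr2, 3.40 and 3.84 in Fr1, and -0.21 and -0.39 in Fr3, an order unlike that of Fn1.

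The gene families of the members were mixed as well. Among 10 tested S100 genes, 4 were higher and 0 lower in Fr2 than in Fr1 at an unadjusted p under 0.05. S100a6, like S100a4 a calcium-binding protein of many cell types, had levels of 6.15 and 6.39 in Fr2, 4.32 and 4.49 in Fr1, and 5.67 and 6.38 in Fr3, and so shared its low in Fr1. S100a8 and S100a9 form calprotectin, an antimicrobial protein complex of neutrophils and classical monocytes. S100a8 had levels of 4.27 and 4.82 in Fr2, 0.51 and 0.82 in Fr1, and 0.65 and -0.51 in Fr3, high in Fr2 alone. S100a9 had 8.55 and 8.59 in Fr2, 6.70 and 6.82 in Fr1, and 5.45 and 4.27 in Fr3, the order of Ly6c2 and Hp. Of 5 other Ifitm genes tested, 1 was higher and 0 lower in Fr2 than in Fr1 at that level, 1 higher and 0 lower in Fr2 than in Fr3, and 0 higher and 1 lower in Fr1 than in Fr3, with medians of -0.0031, 0.07 and 0.21. Ifitm3, which restricts viruses inside endosomes, had levels of 6.14 and 4.90 in Fr2, 3.97 and 3.72 in Fr1, and 5.70 and 5.21 in Fr3, lowest in Fr1 like Ifitm6. Ifitm1 had levels of -0.43 and 1.27 in Fr2, 0.28 and -1.17 in Fr1, and -2.16 and -1.90 in Fr3, and so was lowest in Fr3. Of 9 interferon-response genes tested, 1 was higher in Fr2 than in Fr1, 0 were higher or lower in Fr2 than in Fr3 and 1 was lower in Fr1 than in Fr3, at an unadjusted p under 0.05. Among 5 Ly6 genes tested other than Ly6c2, Ly6c1 was higher in Fr2 than in Fr3 and in Fr1 than in Fr3 at that level and Ly6d was lower in Fr2 than in Fr3. Of the lecticans, the proteoglycan family of versican, Bcan was tested and overlapped between Fr2 and Fr1.

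**Figure D5:**
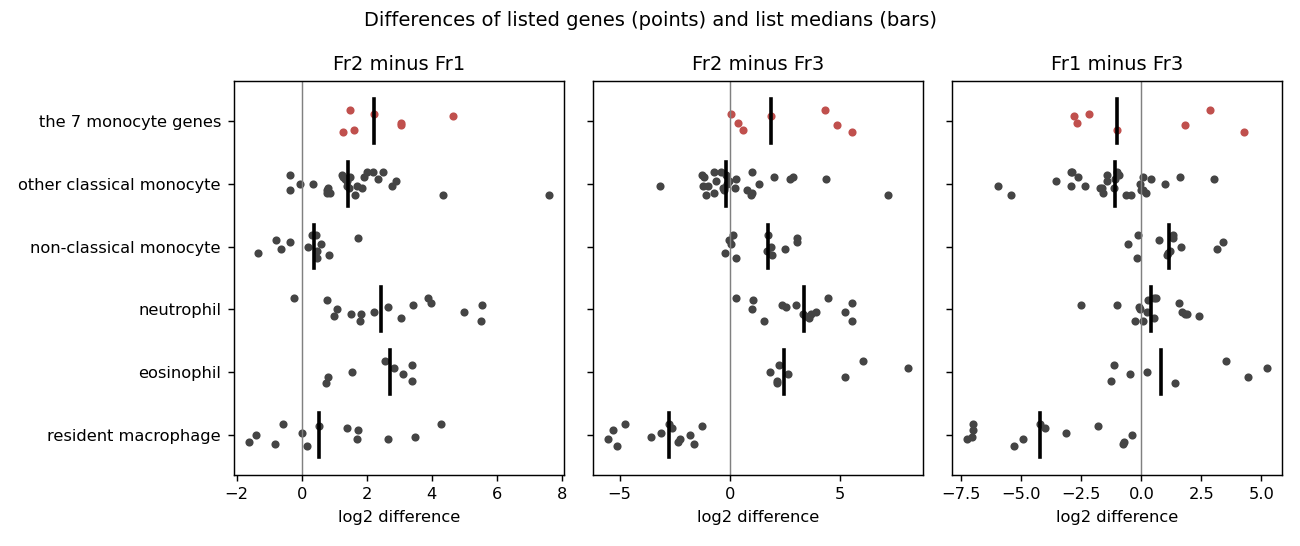
Differences in level (log2) in Fr2 minus Fr1, Fr2 minus Fr3 and Fr1 minus Fr3 for the 7 genes (red) and for marker lists of monocytes, neutrophils, eosinophils and resident macrophages (grey), with a black bar at each list's median. The medians of the neutrophil and eosinophil lists lie to the right of 0 in both comparisons of Fr2, that of the resident macrophage list lies to the left in both comparisons with Fr3, and the 7 genes lie on both sides of 0 in Fr1 minus Fr3.

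Markers of other leukocytes also stood high in Fr2, and their part in the values of the 7 genes was not tested. The summed signal of 19 neutrophil markers, relative to the array's 75th percentile, was 683 and 729 in Fr2, 247 and 305 in Fr1, and 146 and 145 in Fr3. Of these, 17 and 16 were well above background on the Fr2 arrays, 12 and 12 in Fr1, and 15 and 12 in Fr3. A single gene gave between 50.03% and 78.7% of each sum, S100a9 in Fr2 and Csf3r in Fr1 and Fr3. Of 16 tested, 9 were higher and 0 lower in Fr2 than in Fr1 at an unadjusted p under 0.05, 12 higher and 0 lower in Fr2 than in Fr3, and 4 higher and 1 lower in Fr1 than in Fr3. Camp, a neutrophil granule peptide, had levels of 3.56 and 3.67 in Fr2, -2.20 and -1.58 in Fr1, and -1.60 and -2.27 in Fr3, where replicate 2 was not above background. Retnlg, another neutrophil transcript, had levels of 5.91 and 6.53 in Fr2, 2.52 and 1.98 in Fr1, and 0.85 and 0.50 in Fr3, the order of Hp. Ly6g, the defining surface marker of neutrophils, was above background on Fr2 replicate 1 alone.

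Eosinophil markers stood high in Fr2 as well. The summed signal of 8 markers was 79.9 and 157 in Fr2, 19.6 and 20.2 in Fr1, and 7.32 and 12.5 in Fr3, and all 8 were above background on both Fr2 arrays. Prg2, a granule protein, and Siglecf, a surface lectin, were above background on both Fr2 arrays and both Fr1 arrays. In Fr3 Siglecf was above background and Prg2 was not. In Fr2 minus Fr1, 6 of the 8 lay wholly higher, and Epx and Ccr3 overlapped. Epx had levels of -0.10 and -0.85 in Fr2. In Fr1 it read -2.40 and -0.08, and replicate 1 was not above background. The summed signal of 14 resident macrophage markers was 126 and 45.8 in Fr2, 34.1 and 28.8 in Fr1, and 544 and 387 in Fr3. In Fr1 4 and 6 of these were not above background, Mrc1 and Lyve1 among them. Of 9 fibroblast markers, which bear on Fn1, Vcan and S100a4, the sum was 10.1 and 5.45 in Fr2, 9.19 and 3.60 in Fr1, and 6.11 and 4.07 in Fr3. Of 8 tested, 3 were higher and 0 lower in Fr2 than in Fr1 at an unadjusted p under 0.05, 0 higher or lower in Fr2 than in Fr3, and 0 higher and 2 lower in Fr1 than in Fr3. The collagen gene Col3a1 and the proteoglycan gene Dcn, which passed the filter through Fr2 alone, were above background on both Fr2 arrays and on neither Fr1 array. Postn, a matrix gene looked up after its values were seen, went the other way, with levels of -0.49 and -0.88 in Fr2, 1.34 and 0.17 in Fr1, and 0.43 and -4.45 in Fr3, where replicate 2 was not above background. Pdgfra, also on the fibroblast list, passed the filter through Fr3 alone. It was above background on both Fr3 arrays but on no array of Fr2 or Fr1. Pdgfrb, on the list but not tested, was above background on no array. Of 8 plasmacytoid dendritic cell markers, which bear on Plac8, the sum was 99.3 and 112 in Fr2, 152 and 184 in Fr1, and 132 and 170 in Fr3. Between 89.2% and 96.5% of each sum came from Siglech, so that it says little of the other 7 markers. Ccr9 and Spib were above background in Fr1 alone, through which they passed the filter. Tcf4 was highest in Fr3, with levels of 1.90 and 1.76 against 1.33 and 1.46 in Fr1. At an unadjusted p under 0.05, 0 of 8 were higher and 2 lower in Fr2 than in Fr1. At that level 2 were higher and 0 lower in Fr1 than in Fr3.

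The patterns most like those of the members were found over the 6 arrays by Pearson's r among the 20817 genes, as a description. Genes whose names look like those of clones, accessions or gene models were passed over in naming the most alike, as were the members. The counts of genes with an r over 0.95 left out the members alone. The mean of the 7 genes was most like Pnpla8 (r = 0.998), Ngp (0.997), Serpinb11 (0.994), Rps25 (0.989), Grin3b (0.989) and Atxn10 (0.988), and 104 genes reached an r over 0.95. Ngp, a neutrophil granule protein, had levels of 3.77 and 3.23 in Fr2, -0.78 and -2.19 in Fr1, and -2.47 and -1.02 in Fr3, with Fr1 replicate 2 not above background. Single members were most like Ly6c1 and Ap1g2 (Ly6c2), Akap9 and Pilrb1 (Hp), Orai2 and Padi2 (Plac8), Prep and Snrpb2 (Ifitm6), Cacna1a and Sfpq (Vcan), Myh4 and Slc11a1 (Fn1), and Agr2 and Rpl30 (S100a4). With 6 arrays in 3 fractions, between 35 and 93 genes correlated over 0.95 with a single member.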

How the data were processed

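Per the file headers, the deposited spot intensity came from Agilent Feature Extraction 11.5.1.1, with probes placed on mm9. The log2 values of the authors' deposited table had the 75th percentile of each array at 0, column medians between -2.44 and -2.25 and r of at least 0.9999 with the scanner values, and were an alternative. The members and gene lists were chosen with earlier results of these data known. Control spots were left out, spots of a probe averaged, and 4 probes with outlier flags dropped. Levels were log2(processed signal) minus the array's 75th percentile. Probes had to be well above background on the 2 arrays of some fraction (27867 kept), and each gene took its brightest, giving 20817 genes. Names came from a RefSeq table through the accession (32992 probes), the symbol (10223) or a synonym (520), and 12866 probes kept the files' name. No gene model of mm9 was used here, so exon or UTR status is not given, and probe starts in transcripts are those of the array's annotation.

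Groups were compared with limma 3.58.1 (R 4.3.3), with a mean per fraction over 6 arrays, eBayes and Benjamini-Hochberg adjustment over all genes, two-sided, threshold 0.05. A check on simulated data used differences larger than most of those of the members, so it says little of smaller ones. Files were read with Python 3.11.15 and pandas 2.3.3. Named genes were all 7 members with every probe, up to 4 genes per list with the smallest F-test p (those printed are among them unless stated), the sort markers, and the genes most like the members. The number of arrays, 2 per fraction, limits the precision. The p-values set each difference against a spread between replicates that was pooled over the 3 fractions and moderated across all genes. Alternatives covered background correction, normalization, filters, probe choice, T content, the replicate block, the arrays in the fit and leaving out each array.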

Additional observations from a re-analysis of the deposited data

How the results depend on the processing

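Of 315 alternative values of the 21 member differences, some of which repeat the same fit, 301 kept their direction and side of the threshold, 7 changed sign and 7 passed the threshold. No member was called in the reported fit, so no call could be lost. The passes of Plac8, Ifitm6 and Vcan came only from fits that left a single Fr3 array. All 7 sign changes were in Fr2 minus Fr3. Fn1 gave -0.047 with the mean of its probes and -0.085 with arrays centred by T count, and -0.75 to 0.86 when each array was left out. The leave-one-out ranges were -0.053 to 1.25 for S100a4 and -1.43 to 2.14 for Vcan. Genes called in Fr2 minus Fr1 numbered 0 (2038 at an unadjusted p under 0.05), 3 with probes of at most 30% T, 13 in the 4 arrays compared, and 0 to 13 without each array. In Fr2 minus Fr3 there was 1, against 0 with normexp, 9 with probes detected on all 6 arrays, 56 with at most 30% T, 0 with the replicate block, 0 in the 4 arrays compared, and 0 to 988 without each array. In Fr1 minus Fr3 there was 1, against 0 with normexp, 0 without the filter, 12 with at most 30% T, 0 with the replicate block, 0 in the 4 arrays of the shared slide, 0 with every probe tested, and 0 to 1476 without each array. Both high counts were without Fr3 replicate 1, which left a single Fr3 array assumed to vary like the other fractions. The members' median in Fr2 minus Fr1 was 0.99 with normexp, 1.62 with the mean of probes and 3.05 at up to 30% T, where 3 members were left. In Fr2 minus Fr3 it was 0.63 with normexp and 0.58 at up to 30% T, and in Fr1 minus Fr3 it was 0.39 over the 4 members detected on all 6 arrays. The cause of these changes was not tested, beyond the members or arrays left out. Deviations of equal replicate numbers correlated at 0.12 (Fr1 and Fr2), 0.43 (Fr1 and Fr3, on a shared slide) and 0.05 (Fr2 and Fr3). The labels do not say whether equal numbers mark a shared experiment. These values cannot tell such pairing apart from the shared slide. The block changed no member's call. The slide could not be fitted as a block, since Fr2 lay alone on its slide. Ifitm6 and the brightest Vcan probe were not well above background in Fr1, which leaves only bounds there for these probes. Plac8 was not well above background on Fr3 replicate 2.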
